A study of Mus musculus with 8 samples.

Results

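The minichromosome maintenance (MCM) genes were followed in mouse neural stem cells (NSCs) 7 days after X-ray irradiation (irr). The set was chosen by name and not by a rule on measured values, but with earlier results of these data known. It holds the 9 genes Mcm2, Mcm3, Mcm4, Mcm5, Mcm6, Mcm7, Mcm8, Mcm10 and Mcmbp, and every probe set annotated to exactly 1 of these symbols was taken, which gave 26 probe sets of the 45101 on the array and 9 of 18194 genes. The cells were NSCs derived from murine embryonic stem cells and grown in a medium with EGF and FGF2. The irr NSCs received 10 Gy and were harvested on day 7 (n = 4 arrays), and the non-irradiated NSCs received no dose (n = 4 arrays). The methods state that cells were not passaged after irr. They name E14Tg2a as the ES background predominantly used in the study. Which ES-derived line was used for these arrays is not given in the sources used here. The design text calls the 4 samples of a group biological quadruplicates, and nothing states that they came from separate derivations.

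MCM2 to MCM7 are 6 related ATPases that form a ring, the core of the replicative DNA helicase. In G1 phase the origin recognition complex (ORC), CDC6 and CDT1 load pairs of these rings onto origins, and in S phase CDC7-DBF4 and cyclin-dependent kinases lead to the joining of CDC45 and the GINS complex, which turns the ring into the active CMG helicase. MCM10 takes part in starting the activated helicase, MCMBP binds MCM subunits outside the loaded ring and is known for supporting their assembly, and MCM8 works with MCM9 in homologous recombination. The genes of the ring are textbook E2F targets and their proteins are widely used as markers of cells that are able to proliferate, neural stem and progenitor cells among them.

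All 9 genes were lower in irr NSCs. The 6 genes of the ring were all lower, with log2 fold changes of -1.23 to -1.88 in their brightest probe sets and a median of -1.55, which is 2.94-fold lower and leaves 34.1% of the level in non-irradiated NSCs. Mcm10 changed most, at 4.16-fold lower, and Mcmbp and Mcm8 changed least, at 1.76-fold and 1.5-fold lower. Over the 21919 probe sets tested, the median was -0.01. Values are log2 RMA values, log2 fold changes are irr minus non-irradiated, and adjusted p-values are limma's with Benjamini-Hochberg adjustment over those 21919 probe sets, which had an intensity over 100 (6.64 on the log2 scale) on at least 1 array.

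The whole data set changed widely, which sets the background for these counts. Of the probe sets tested, 38.0% were called higher and 37.1% were called lower at an adjusted p under 0.05, whereas 5.98% were lower and also changed at least 2-fold. Arrays of a group correlated at 0.991 to 0.997 and arrays of different groups at 0.912 to 0.923. Centring the arrays on 9 reference genes moved the median of all probe sets by 0.26 and the share of higher among called probe sets to 74.2%, against 50.6% as deposited. More of that shift came from Tfrc, itself 2.64-fold lower, than from the other 8 genes together, and centring on those 8, chosen after seeing the data, moved the median by 0.12 and the share to 62.6%. Of the 9 genes, 5 were called lower, 2 higher and 2 were not called. The 8 still held Pgk1, lower at -0.66, and Hprt, lower at -0.38. Hprt exceeded an intensity of 100 on 0 irr arrays and 1 non-irradiated array. Neither centring thus rests on unchanged genes only. The median of the MCM2-7 genes was -1.29 with the 9 genes and -1.43 with the 8. All 10 NSC markers checked exceeded an intensity of 100 on at least 1 array, with summed intensities of 60400 to 64200 on irr arrays and 54900 to 57100 on non-irradiated arrays. Fabp7 and Vim were the brightest of the 10 and weighed most in that sum. Of the 10, 4 were higher, by up to 0.46 (Slc1a3), and 2 were lower (Pax6 at -0.54, Msi1 at -0.17). The remaining 4 were not called, among them Nes at 0.07. Of 8 astrocyte markers 7 exceeded an intensity of 100, 5 were higher and 2 lower. The sum of the 8 was 25100 to 28400 on irr arrays, against 12700 to 13400 on non-irradiated arrays. Apoe carried that rise in the sum (13.94 ± 0.12 in irr NSCs and 9.29 ± 0.13 in non-irradiated NSCs, log2, SD, n = 4 each), and without it the sum was 11000 to 11500 on irr arrays and 12100 to 12800 on non-irradiated arrays. Of the other higher markers, Aqp4 gave 5.43, Slc1a2 2.74, Aldh1l1 0.83 and S100b 0.19 (log2 fold changes). Lower were Aldoc at -0.73 and Gfap, near an intensity of 100, at -0.18. Aldoc was the brightest apart from Apoe, so it weighed most in the sum without Apoe. Among markers of other cells, 5 of 7 of neurons, 3 of 5 of oligodendrocytes, 1 of 6 of microglia, 1 of 5 of endothelium, 2 of 5 of fibroblasts and 2 of 5 of pluripotent cells exceeded an intensity of 100. The fibroblast sum was 554 to 592 on irr arrays and 279 to 293 on non-irradiated arrays. Lum, at a log2 fold change of 2.00, and Dcn, at 1.14, carried that rise. Col1a1 (0.13), Col1a2 (-0.21) and Pdgfrb (-0.02) stayed below an intensity of 100. The signal gap between the 3′ and 5′ control probe sets of Actb was also wider, at 0.51 ± 0.07 on irr arrays and 0.26 ± 0.03 on non-irradiated arrays (log2, SD, n = 4 each, exact permutation test, two-sided, adjusted p = 0.039 over 4 controls), as it was for Tfrc and Pcx (adjusted p = 0.039 each, exact permutation test), while for Gapdh it was -0.06 on irr arrays and -0.08 on non-irradiated arrays (adjusted p = 0.71). The part of these shifts in the changes of the MCM genes was not tested. In bulk RNA, fewer cells that express a gene and less RNA of it per cell cannot be told apart.

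Mcm2, the subunit that carries a histone-binding tail and is the usual proliferation marker of the family, read 10.37, 10.30, 10.37 and 10.33 on the 4 irr arrays, against 11.84, 11.78, 11.79 and 11.85 on the 4 non-irradiated arrays. The groups lay 1.4 apart at their nearest arrays, and each spread over less than 0.1. The log2 fold change was -1.47 (SE 0.04, adjusted p = 1.9e-09, limma), or 2.77-fold lower. A further probe set of Mcm2 gave -1.40.

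Mcm3, which pairs with MCM5 in the ring, read 10.29, 10.40, 10.46 and 10.30 in irr NSCs, against 11.98, 11.94, 12.02 and 12.06 in non-irradiated NSCs. It was 3.11-fold lower, with a log2 fold change of -1.64 (SE 0.05, adjusted p = 3.9e-09, limma). Mcm5 read 10.88, 10.79, 10.89 and 10.79 in irr NSCs and 12.78, 12.72, 12.61 and 12.76 in non-irradiated NSCs. This was the largest fall within the ring, a log2 fold change of -1.88 (SE 0.05, adjusted p = 1.8e-09, limma) or 3.68-fold, and the lowest non-irradiated array still lay 1.72 above the highest irr array.

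Mcm4, Mcm6 and Mcm7 encode the subunits that make up a stable subcomplex with helicase activity of its own. Mcm4 read 11.16, 11.14, 10.99 and 11.06 in irr NSCs, against 12.31, 12.32, 12.29 and 12.36 in non-irradiated NSCs. Its log2 fold change of -1.23 (SE 0.05, adjusted p = 1.7e-08, limma) was the smallest of the ring, 2.35-fold lower. Mcm6 read 10.45, 10.51, 10.55 and 10.51 in irr NSCs, against 12.16, 12.22, 12.08 and 12.11 in non-irradiated NSCs, and was 3.11-fold lower (log2 fold change -1.64, SE 0.05, adjusted p = 2.0e-09, limma). Mcm7 read 12.17, 12.19, 12.23 and 12.24 in irr NSCs, against 13.52, 13.53, 13.47 and 13.53 in non-irradiated NSCs, and was 2.47-fold lower (log2 fold change -1.31, SE 0.04, adjusted p = 3.5e-09, limma). In none of the 6 ring genes did an irr array reach a non-irradiated one, a separation also seen in 34.0% of all probe sets tested. The distance between the groups was 1.13 or more, while the SD within a group was 0.03 to 0.08.

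Mcm10 read 7.75, 7.74, 7.79 and 7.85 on the irr arrays, against 9.84, 9.83, 9.86 and 9.83 on the non-irradiated arrays. The groups were again fully apart, by 1.97. Its log2 fold change of -2.06 (SE 0.04, adjusted p = 4.3e-10, limma) ranked 185th among the decreases of the 21919 probe sets, and 0.844% of them fell at least as far. Mcmbp read 9.93, 9.90, 9.91 and 9.87 in irr NSCs and 10.78, 10.81, 10.64 and 10.64 in non-irradiated NSCs. These did not overlap either, but the change was smaller, with a log2 fold change of -0.81 (SE 0.05, adjusted p = 4.2e-07, limma). Mcm8, measured by 1 probe set near the intensity filter, read 6.98, 7.05, 7.04 and 7.0 in irr NSCs, against 7.45, 7.69, 7.80 and 7.48 in non-irradiated NSCs. The non-irradiated arrays were the more scattered (SD 0.17, against 0.03 in irr NSCs), and the log2 fold change was -0.59 (SE 0.08, adjusted p = 7.8e-05, limma). Tested against a change of 1.5-fold (limma's treat), Mcm8 was no longer called.

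**Figure D1:**
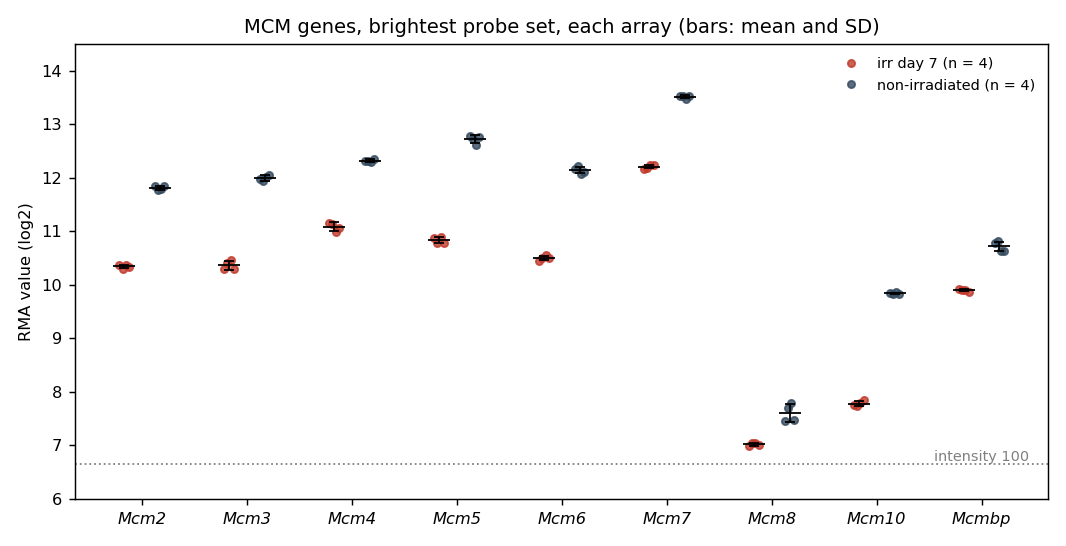
Log2 RMA value of each MCM gene in its brightest probe set, with irr day 7 arrays (red) to the left of non-irradiated arrays (blue-grey). Points are arrays, black bars are the mean and SD of 4 arrays, and the dotted line marks an intensity of 100. In all 9 genes every irr array lies below every non-irradiated array, with the widest distance in Mcm10 and the narrowest in Mcm8. Of all probe sets tested, 34.0% were separated in this way.

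Whether the genes fell by the same amount was asked by comparing their log2 differences array by array, over all 36 pairs of the 9 genes (exact permutation test over arrays, two-sided, Benjamini-Hochberg over the 36 pairs). With 4 arrays against 4 the smallest p is 0.029, which 32 pairs reached (adjusted p = 0.032 each). At this floor the adjusted p depends only on how many pairs tie there. The share of such pairs among other genes was not measured. Within the ring 13 of 15 pairs reached the smallest p. Mcm4 fell less than Mcm5 by 0.65 (SE 0.06), the largest difference in the ring, and less than Mcm6 by 0.41 (SE 0.07). Mcm2 fell less than Mcm5 by 0.41 (SE 0.03). Mcm3 and Mcm6 were not told apart, with a difference of 0.00 (SE 0.06, exact permutation p = 1.0), nor were Mcm4 and Mcm7 (0.07, SE 0.06, adjusted p = 0.35, exact permutation test). Outside the ring the same held for Mcm5 and Mcm10, where Mcm10 fell further by 0.18 (SE 0.06, adjusted p = 0.062, exact permutation test), and for Mcm8 and Mcmbp, where Mcm8 fell less by 0.23 (SE 0.10, adjusted p = 0.15, exact permutation test). Differences of this size also appeared between probe sets of 1 gene, as the next values show, so an order within the ring depends on the probe set chosen.

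Of the 26 probe sets, 23 passed the intensity filter and 3 did not. All 23 were called lower, where 37.1% of all probe sets were, and 19 of them were at least 2-fold lower, where 5.98% were. Of the 23, 3 passed only through the non-irradiated arrays, so a difference was built into their passing, and 20 exceeded the intensity in both groups, 17 of them at least 2-fold lower. The irr arrays lay entirely below the non-irradiated arrays in 23 of 23 probe sets, against 34.0% of all probe sets tested. The 3 that did not pass were 1447756_x_at of Mcm6, with 3.86, 3.67, 3.50 and 3.70 in irr NSCs and 3.60, 3.64, 3.72 and 4.08 in non-irradiated NSCs, which overlap, and 1433407_at and 1454244_at of Mcm10, whose means were 5.21 and 4.86 in irr NSCs and 5.79 and 5.91 in non-irradiated NSCs.

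Within a gene, the probe sets of Mcm2 spread by 0.07, those of Mcm6 by 0.20, those of Mcm4 by 0.25 and those of Mcm7 by 0.38 in log2 fold change. The brightest probe set of Mcm7, 1438320_s_at, gave the smallest change of its 4, and 1416030_a_at gave -1.69. Likewise 1436708_x_at of Mcm4 gave -1.48. Affymetrix ends an identifier with _s_at where the probes can match several transcripts and with _x_at where they may share sequence with others. In Mcm3, 4 probe sets gave -1.62 to -1.68 and the dimmest, 1420029_at, gave -0.85. Its irr arrays were all below 100, so that its change is at least 1.18-fold lower. The same applies to 1459658_at of Mcm5 (-1.26, at least 2.07-fold lower, against -1.85 and -1.88 for the brighter ones) and to 1439126_at of Mcmbp (-1.16, at least 1.57-fold lower). Mcmbp had the widest spread, 0.87. Its probe set 1438254_at read 8.95, 8.98, 8.83 and 8.85 in irr NSCs, against 9.20, 9.20, 9.32 and 9.06 in non-irradiated NSCs, groups only 0.08 apart, and its log2 fold change of -0.29 became -0.03 with arrays centred on the 9 reference genes and -0.17 without Tfrc, and was called in neither. Of 25 pairs of probe sets of 1 gene, 13 reached the smallest unadjusted p of 0.029, and 0 were below 0.05 after adjustment over the 25, the lowest being 0.055 (exact permutation test, two-sided). The pairs of genes above reached the same smallest p. The adjusted values thus differ only through the number of ties and tests, and give no contrast between genes and probe sets.

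**Figure D2:**
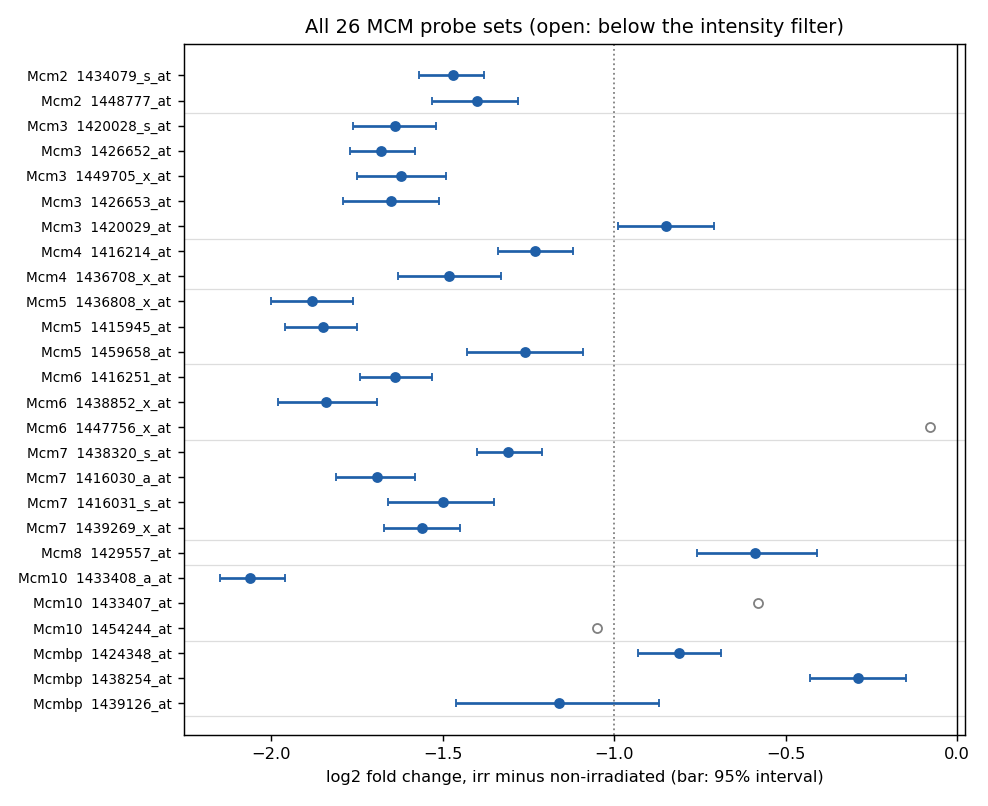
Log2 fold change of irr minus non-irradiated NSCs for all 26 MCM probe sets, grouped by gene and ordered by brightness within it. Filled points with 95% intervals from limma are the 23 probe sets past the filter, open points the 3 below it, and the dotted line marks a 2-fold decrease. All filled points lie left of 0, and those of the ring genes, apart from the dimmest probe set of Mcm3, lie left of the dotted line.

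The promoters of the genes are shown because E2F factors and the CCAAT-binding factor NF-Y are textbook regulators of MCM genes and because these genes moved together. RefSeq windows (GRCm38.p6, 250 bases before to 50 bases after the start) were matched by symbol for 8 of the 9 genes, in 9 windows, since Mcm7 has a pair of starts. Mcm4 was not matched. The E2F octamers TTTGGCGC, TTTCCCGC, TTTGCCGC and TTTCGCGC were searched on both strands, overlaps included. They were present in 6 of the 8 genes, namely Mcm3, Mcm5, Mcm6, Mcm7, Mcm8 and Mcmbp, and in 2.6% of the 27025 genes with a window. In the sequences below the octamers are in capitals, each stretch reads 5′ to 3′ in the direction of the gene, and positions count from the start, the first transcribed base being 1. Mcm6 held 3, a pair that overlaps by 4 bases at -110 and -106 and another at -47, and Mcm5 held an overlapping pair of the same kind at -153 and -149. The first start of Mcm7 had 1 at -165 and 1 at 17, and Mcmbp had 1 at -25.
Mcm6, chr1:128359706-128359835, minus strand: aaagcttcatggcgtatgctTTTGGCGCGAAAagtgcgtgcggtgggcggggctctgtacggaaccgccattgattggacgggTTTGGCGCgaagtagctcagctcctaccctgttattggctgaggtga
Mcm5, chr8:75109349-75109508, plus strand: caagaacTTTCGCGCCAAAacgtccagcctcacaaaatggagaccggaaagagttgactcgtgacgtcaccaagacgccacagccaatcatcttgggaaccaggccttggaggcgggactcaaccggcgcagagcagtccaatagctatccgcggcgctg
Mcm7, chr5:138171884-138172063, minus strand: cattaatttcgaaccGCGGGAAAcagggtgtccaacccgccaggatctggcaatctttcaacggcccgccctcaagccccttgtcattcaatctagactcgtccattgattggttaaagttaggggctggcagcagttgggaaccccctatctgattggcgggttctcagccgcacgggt
Mcmbp, chr7:128740430-128740479, minus strand: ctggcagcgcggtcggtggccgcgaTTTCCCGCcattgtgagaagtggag

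In Mcm3 and Mcm8 the octamers lay just after the start, at 20 and 39 in Mcm3 and at 40 in Mcm8, beside the downstream one of Mcm7.
Mcm3, chr1:20820266-20820295, minus strand: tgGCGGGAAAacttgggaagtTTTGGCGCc
Mcm7, chr5:138171848-138171872, minus strand: cgacgTTTCGCGCcaatttcggttg
Mcm8, chr2:132816166-132816190, plus strand: agcgcgtcatagacGCGCCAAAaaa

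Mcm2 and Mcm10 held none of the 4 octamers in their windows, and their proximal stretches are given for comparison.
Mcm2, chr6:88898781-88898960, minus strand: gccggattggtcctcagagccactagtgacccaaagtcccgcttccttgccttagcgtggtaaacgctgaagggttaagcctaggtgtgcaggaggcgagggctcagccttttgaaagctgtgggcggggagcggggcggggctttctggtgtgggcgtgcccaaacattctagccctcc
Mcm10, chr2:5012792-5012911, minus strand: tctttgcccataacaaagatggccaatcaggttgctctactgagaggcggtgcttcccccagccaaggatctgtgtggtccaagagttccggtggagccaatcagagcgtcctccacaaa

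The letters CCAAT, on either strand, were found in 7 of the 8 genes, all but Mcmbp, with 3 matches each in Mcm3, Mcm5, Mcm10 and the first start of Mcm7, and in 41.1% of all genes with a window. A match describes letters in a window and was not tested as a binding site.

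**Figure D3:**
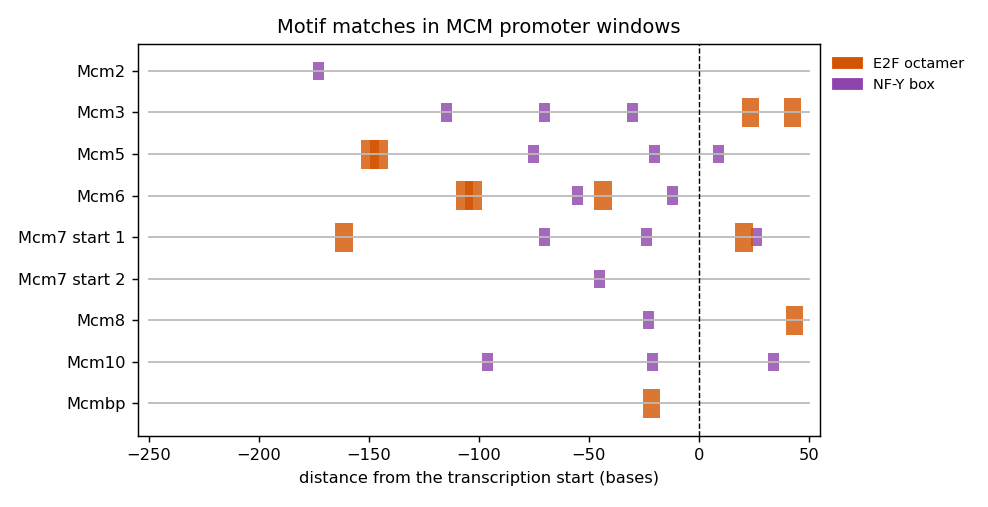
Positions of E2F octamers (orange) and CCAAT letters, the NF-Y box (purple), in the RefSeq promoter windows of 8 MCM genes, from 250 bases before to 50 bases after the transcription start (dashed line). Octamers occur in 6 of the 9 windows and the NF-Y box in 8 of them.

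The E2F and RB family itself was read from the same fit, with each gene in its brightest probe set. Of its 13 genes, 9 were lower, 3 were higher and 1 was not called, where 37.1% of all genes tested were lower and 40.2% higher. The largest changes were in the repressors E2f8, with a log2 fold change of -2.68 (SE 0.07, adjusted p = 1.5e-09, limma), and E2f7 at -2.60 (SE 0.06). E2f8 averaged 7.19 ± 0.15 in irr NSCs and 9.87 ± 0.04 in non-irradiated NSCs (SD, n = 4 each). The activator E2f2 changed by -1.42 and Rbl1, the pocket protein p107, by -1.26. E2f4, which binds promoters in resting cells, gave -0.15 (adjusted p = 0.22, limma). The 3 higher genes, named after their values were seen, were Rb1, the retinoblastoma gene, at 1.00 (SE 0.06, adjusted p = 1.5e-07, limma), Rbl2, the pocket protein p130, at 0.56 and Tfdp2, an E2F dimerization partner, at 0.33. Of the 9 lower genes, E2f6 was not called when arrays were centred on the 9 reference genes, and was called without Tfrc among them.

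The partners of the helicase were lower for the most part. Of 31 genes in 5 groups, 27 were lower, 17 of them at least 2-fold, 2 were higher and 2 were not called, where 37.1% of all genes were lower and 6.17% at least 2-fold lower. Centred on the 9 reference genes, 23 were lower and 5 higher, and without Tfrc 24 were lower and 3 higher. The 5 genes that complete the CMG helicase were all lower, with a median of -1.63. Gins1 averaged 7.85 ± 0.05 in irr NSCs and 10.32 ± 0.08 in non-irradiated NSCs (SD, n = 4 each), a log2 fold change of -2.47 (SE 0.05, adjusted p = 4.3e-10, limma). Cdc45 changed by -1.94 and Gins2 by -1.63. The other GINS subunits changed less, Gins4 by -0.57 and Gins3, which fell outside the genes to be named, by -0.54, although the proteins form 1 complex.

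Among 9 loading genes 8 were lower and 1 was higher, with a median of -1.03. Cdc6, the ATPase that loads the ring with ORC, gave -2.44 (SE 0.07, adjusted p = 2.3e-09, limma) at 7.51 ± 0.12 in irr NSCs and 9.95 ± 0.10 in non-irradiated NSCs (SD, n = 4 each). Gmnn, which encodes geminin, the inhibitor of CDT1, gave -2.09, Cdt1 itself -1.42 and Orc1 -1.33. The ORC subunits differed among themselves. Beside Orc1, Orc6 gave -1.03 and Orc5 -0.56, Orc2 at -0.33 and Orc3 at -0.22 were lower as deposited but not called after centring on the 9 reference genes (for Orc3 also without Tfrc), and Orc4 was higher, at 0.42 (SE 0.09, adjusted p = 0.002, limma). These 5 subunits were named after their values were seen.

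All 8 activation genes were lower, with a median of -1.34. For Recql4, which passed the filter only through the non-irradiated arrays, a decrease was built into passing, and its change is at least 2.02-fold lower. Dbf4 and Cdc7, the regulatory and catalytic subunits of the kinase that phosphorylates the MCM ring, gave -2.04 (SE 0.06, adjusted p = 3.5e-09, limma) and -1.62. Wdhd1, which links the CMG helicase to DNA polymerase alpha, gave -1.80, and Ticrr, which brings CDC45 to origins, gave -1.42. Of the 7 genes that remove the helicase at the end of replication, 4 were lower, 1 was higher and 2 were not called, with a median of -0.14. Here Lrr1, the substrate receptor of the ubiquitin ligase for MCM7, gave -1.98 (SE 0.06, adjusted p = 2.6e-09, limma) and Traip, a ligase that acts on the same helicase, -1.62, whereas the general unfolding machinery was close to 0. Vcp, the p97 unfoldase, averaged 13.43 ± 0.03 in irr NSCs and 13.51 ± 0.03 in non-irradiated NSCs (SD, n = 4 each), a change of -0.08 (adjusted p = 0.10, limma), and Ubxn7, a p97 adaptor, gave 0.04 (adjusted p = 0.54, limma). Faf1 gave -0.64 and Ufd1, a p97 cofactor, was higher at 0.33. The remaining lower gene was the cofactor Nploc4, at -0.14. Centred on the 9 reference genes, Nploc4 gave 0.12, Vcp 0.19 and Ubxn7 0.30, all called higher, and without Tfrc Nploc4 gave -0.02 and was not called. The median-centred arrays gave -0.12 for Vcp, called lower, so that no direction is given for these 3 genes.

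Mcm9, the partner of Mcm8, changed by -0.21 (SE 0.08, adjusted p = 0.032, limma) and gave 0.05 after centring on the 9 reference genes and -0.09 without Tfrc, and was called in neither. Hrob, which recruits the MCM8-MCM9 helicase to damaged DNA, gave -0.83 (SE 0.08, adjusted p = 5.4e-06, limma). Mcmdc2, an MCM-like gene of meiosis, was not found by its symbol.

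**Figure D4:**
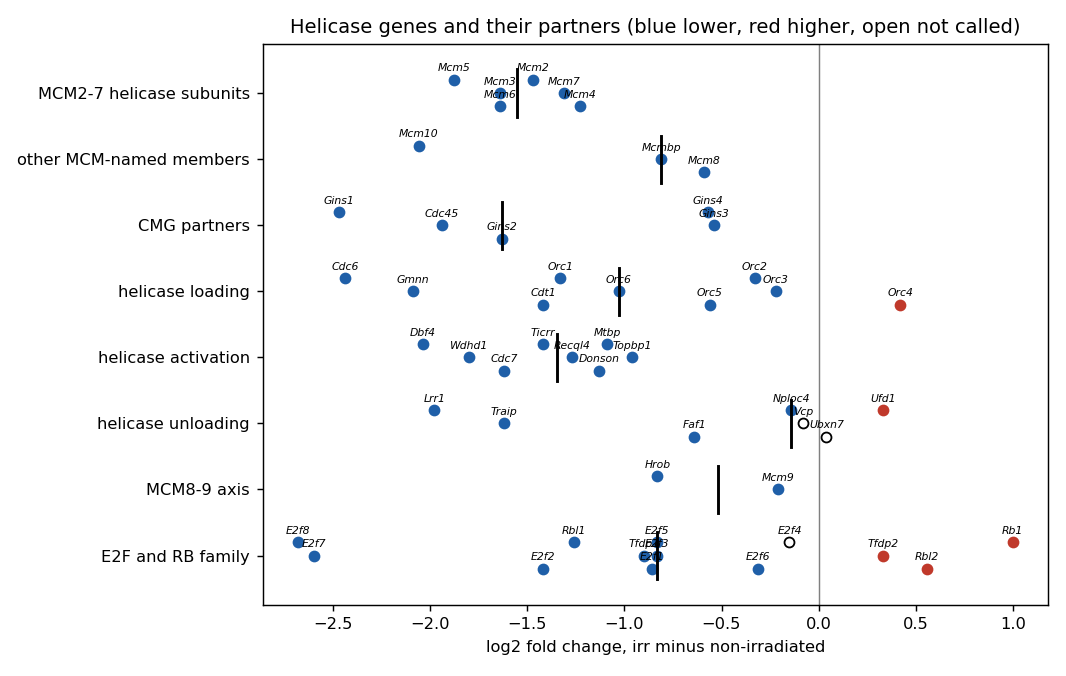
Log2 fold change of irr minus non-irradiated NSCs for the MCM genes, their partners in the helicase cycle and the E2F and RB family, 1 point a gene (brightest probe set), with the median of each group as a black line. Blue points were called lower, red points higher and open points were not called. The MCM2-7 genes, the CMG partners and the activation genes all lie left of 0, and the unloading group straddles it.

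The genes whose profile over the 8 arrays was most like the mean of the 6 ring genes were found by the root mean square distance of their centred log2 values. A gene outside the set was read by whichever of its probe sets lay nearest, a ring gene by its brightest. Distances inside and outside the set thus come from unlike choices. The mean of the ring was 10.89, 10.89, 10.92 and 10.87 on the irr arrays and 12.43, 12.42, 12.37 and 12.45 on the non-irradiated arrays. The nearest genes outside the set were Nop56, a component of box C/D small nucleolar particles (distance 0.039), Sqle, which encodes squalene epoxidase of sterol synthesis (0.042), Ncaph, a condensin subunit (0.042), Anp32e, a chaperone of the histone variant H2A.Z (0.044), and the mitotic kinesin Kif22 (0.045). Of the ring itself, Mcm2 lay at 0.036, Mcm6 at 0.068, Mcm3 at 0.075, Mcm7 at 0.113, Mcm4 at 0.158 and Mcm5 at 0.181. Over these arrays 0 genes outside the set lay nearer to the mean than Mcm2, 34 lay nearer than Mcm6 and 348 nearer than Mcm5, the ring gene farthest from it. Each ring gene is itself part of that mean, which draws it nearer by construction, so these counts do not rank ring genes against others on equal terms. With 2 groups, the distance mostly reads how near a gene's log2 fold change is to that of the ring, which was -1.51 to -1.56 in the 5 genes named.

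The protein-coding genes next to the MCM genes were also read, a comparison chosen after the values of the MCM genes were seen. Of 19 neighbours (RefSeq, GRCm38.p6, used for gene order only), 13 were tested, 6 were higher, 6 lower and 1 not called, with a median of -0.10, and none was 2-fold lower. Over all genes 40.2% were higher, 37.1% lower and 6.17% at least 2-fold lower, so these shares lay near the background. Centred on the 9 reference genes, 7 neighbours were higher and 3 lower, as Taf6, Trmt6 and Crls1 were not called and Inpp5f was called higher, and without Tfrc 6 were higher and 5 lower. The gene beside Mcm5 was Hmox1, the inducible heme oxygenase, which averaged 10.27 ± 0.36 in irr NSCs and 8.03 ± 0.27 in non-irradiated NSCs (SD, n = 4 each), a log2 fold change of 2.23 (SE 0.18, adjusted p = 2.3e-06, limma). Both neighbours of Mcm2 were higher, Podxl2 at 0.84 and Tpra1 at 0.57, as was Prkdc, the catalytic subunit of DNA-PK, next to Mcm4, at 0.30 (SE 0.06, adjusted p = 0.0015, limma). Around Mcm7, which gave -1.31, Ap4m1, which overlaps it, gave -0.69 and Taf6 -0.27. Cops6 gave -0.52 in its brightest probe set and 0.05 in its other one. The probe sets also differed in sign for Sec23ip beside Mcmbp (-0.49 and 0.34) and Crls1 beside Mcm8 (-0.19 and 0.21). No neighbour called higher had a probe set past the filter with a negative change.

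**Figure D5:**
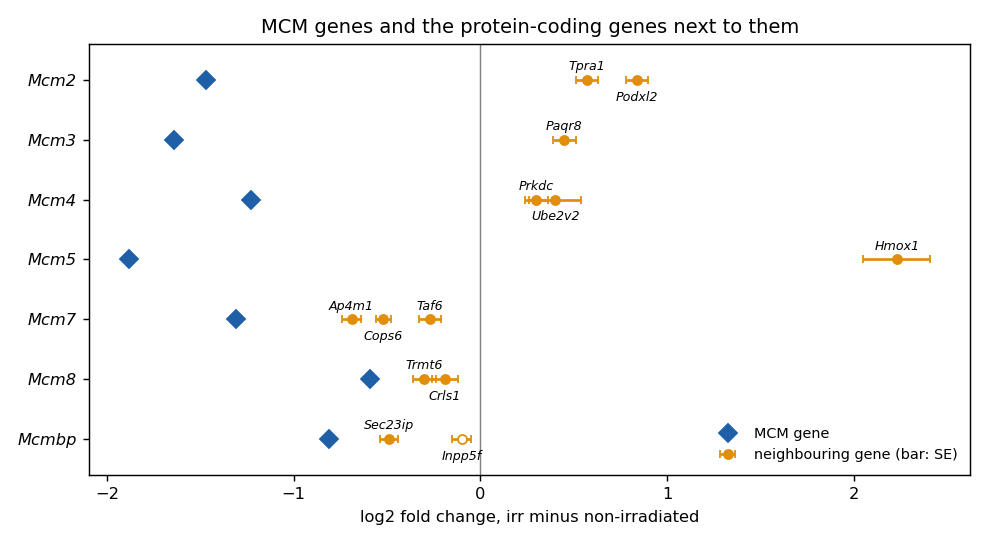
Log2 fold change of irr minus non-irradiated NSCs for 7 MCM genes (blue diamonds) and their neighbouring protein-coding genes that passed the filter (orange circles, bar: SE, open where not called), each in its brightest probe set. Neighbours of Mcm2, Mcm3, Mcm4 and Mcm5 lie right of 0, and each MCM gene lies left of all its neighbours.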

How the data were processed

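RNA of 4 irr and 4 non-irradiated NSC cultures was hybridized to Affymetrix whole-genome mouse expression arrays. The log2 values were deposited by the authors, who made them with GCOS and RMA (background correction, quantile normalization and probe summary, versions not given in the sources used here), and no detection calls were used here. Array medians were 6.22 to 6.24, and the number of arrays limits the precision. Probe sets were named from the platform annotation. For 34754 of them the RefSeq symbol was looked up through the Entrez number, whether or not it differed from the annotated one. A single symbol was listed for 34958, several for 932 and none for 9211. The 64 control probe sets were left out of the tests. The rest were tested where at least 1 array exceeded an intensity of 100, with limma 3.58.1 in R 4.3.3 (two-sided, no covariates). Each gene is read by its brightest probe set (mean of all 8 arrays). Only in the search for nearest profiles are genes outside the set read by the probe set nearest to the ring. Exact permutation tests used Python 3.11.15 with scipy 1.17.1. Named were all members with all probe sets, up to 4 called genes of each pathway group with the largest change and those not called, and the 5 nearest profiles. The members, lists and rule were chosen with earlier results of these data known. The fit was tested on simulated data. Filters, scalings, limma settings, a replicate block, probe set choice and left-out arrays were the alternatives.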

Additional observations from a re-analysis of the deposited data

Results flagged for a closer look

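One array stood apart from the others of its group in 1 of the 46 groups of 4 values checked, where chance flags about 1 in 20 groups. In the dimmest probe set of Mcm3, 1420029_at, the non-irradiated replicate 2 read 7.06, against 6.80, 6.81 and 6.84 on the other non-irradiated arrays, and its gap was 0.84 of the range of the group. The irr arrays of this probe set were all below an intensity of 100.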

How the results depend on the processing

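The 23 MCM probe sets past the filter were all lower without any 1 array (median of MCM2-7 -1.57 to -1.54). Over those left-out arrays 15708 to 16258 probe sets and 28 to 29 of 31 partner genes were called. The median of MCM2-7 was -1.60 with arrays centred on their median, -1.29 centred on 9 reference genes and -1.43 without Tfrc, a setting added after seeing the data (22 of 23 MCM probe sets called in each), -1.50 when each gene's probe sets were averaged, and -1.64 over the 5 genes with plain identifiers, where 12 of 12 MCM probe sets were lower. Against a 1.5-fold change (treat), 4783 probe sets, 21 MCM probe sets and 19 partner genes were called, and with at least 2-fold 3167, 19 and 17. Mcm8 was not called under either of these, nor Mcmbp at 2-fold. Whether the replicate numbers shared by the groups pair the samples was not settled (correlations of deviations 0.043, 0.376, -0.207 and 0.509, with replicates 2 and 4 nearest to their own number). No alternative turned the direction of any of the 9 genes. Centred on the 9 reference genes, Mcm4 gave -0.97 and Mcmbp -0.55, and the other ring genes stayed at least 2-fold lower. A replicate block called 16550 probe sets, 23 MCM probe sets and 29 partner genes, with a median of -1.55. Pair tests without 1 array were not run, since 3 arrays against 4 allow no exact p under 0.057.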

Other observations

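Other genes of the cell cycle were read beside the MCM genes. Of 9 comparators tested, 7 were lower and 2 higher, where 37.1% of all genes were lower and 40.2% higher. Ccna2, the S and G2 phase cyclin, was 4.8-fold lower in irr NSCs than in non-irradiated NSCs, a log2 fold change of -2.26 (SE 0.05, adjusted p = 6.3e-10, limma). Ccne2 gave -2.23 (SE 0.15), and the proliferation marker Mki67 gave -1.88 (SE 0.09). Pcna, the sliding clamp that follows the helicase, changed less, by -0.66 (SE 0.05, adjusted p = 5.7e-07, limma). Higher were Cdkn1a, which encodes the inhibitor p21, at 2.97 (SE 0.05, adjusted p = 2.7e-10, limma), and Ccnd1, the G1 phase cyclin, at 0.44. Pcna, Mki67 and Ccnd1 were named after their values were seen.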
